A study of Danio rerio with 10 samples.

Results

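The expression of 10 genes of the embryonic heart was followed across *islet2a* morphants, *islet2a* mutants and both kinds of wildtype zebrafish embryo. They were 5 contractile genes (*myl7*, *cmlc1*, *tnnt2a*, *myh6* and *vmhc*), 2 natriuretic peptide genes (*nppa* and *nppb*) and 3 cardiac transcription factor genes (*gata4*, *nkx2.5* and *tbx5a*). Each gene was read from the probe set that the array annotation assigns to its symbol alone. This found 9 of the 10 by symbol, and *vmhc* was found under its current RefSeq symbol *myh7* through the gene identifier, among 19260 genes with a probe set of this kind. RNA came from pools of whole embryos at 48 hpf, with 1 GeneChip array for each pool. Morphants (3 arrays) were wildtype embryos injected with a morpholino that blocks translation of *islet2a* mRNA. Mutants (3 arrays) were homozygous for a TALEN-induced deletion in *islet2a* that shifts the reading frame, and they came from 1 allele. Wildtype embryos were either uninjected (2 arrays) or homozygous wildtype siblings of the mutants (2 arrays), and these 4 arrays were joined as the control group. Joining them follows the methods of the study. Embryos injected with a control morpholino were not among these arrays, so injection itself and the block of *islet2a* cannot be told apart in morphants.

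The heart of the zebrafish is beating and has an atrium and a ventricle well before the stage measured here. Its muscle cells build sarcomeres, in which myosin thick filaments, made of heavy and light chains, pull on actin thin filaments under the control of calcium and the troponin complex. *gata4*, *nkx2.5* and *tbx5a* encode members of the GATA, homeodomain and T-box families that act together on genes of heart muscle, and natriuretic peptides are hormones that vertebrate heart muscle makes and secretes and whose genes respond to load.

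All values are log2 signals, so a difference of 1 is a 2-fold change. A gene is said to have risen or fallen where limma, fitted to the 3 groups over all 75212 probe sets, gave a Benjamini-Hochberg adjusted p below 0.05, and to have been called differentially expressed where the change was also at least 2-fold. In morphants against mutants these words give the direction between those groups, not which of them differed from controls. The p-values measure the spread between these pools, and neither labels nor methods say whether the pools of 1 group were separate clutches. Pearson's r over all probe sets was 0.983 to 0.992 between arrays of 1 group (12 pairs) and 0.972 to 0.988 between groups (33 pairs). The targeted gene, read as *isl2a*, had log2 signals of 9.79 to 9.96 in morphants, 8.95 to 9.13 in mutants and 8.51 to 8.61 in controls, which separates the groups. A morpholino that blocks translation, or a short deletion that shifts the frame, need not lower a transcript, so this level checks neither label. The heart is a small part of a whole embryo, and in such RNA fewer heart cells and less RNA per heart cell cannot be told apart.

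The signals of *myl7*, *cmlc1* and *tnnt2a*, the light chain and troponin T genes, were higher in morphants than in mutants by 1.60-fold to 1.78-fold, with the mean of the controls between them. These 3 of the 10 genes rose in that comparison and 0 fell, where 13.6% of all probe sets passed the test and 7.5% passed it upward. Most probe sets have no gene symbol, and among the 19260 genes with a symbol of their own 23.1% passed and 13.5% passed upward, so 3 of 10 is near the share of genes in general. In morphants against controls 1 of 10 rose (*myl7*) and 0 fell, where 5.17% of all probe sets and 9.94% of genes passed, and 3.59% and 7.13% passed upward. In mutants against controls 0 of 10 passed limma's test, where 0.338% of all probe sets and 0.306% of genes did. No gene of the 10 was called at 2-fold in a comparison of the 3 groups (0 of 10), a threshold that 2.52% of all probe sets and 2.98% of genes met in morphants against mutants, 0.818% and 1.18% in morphants against controls and 0.164% and 0.109% in mutants against controls. By the pairwise test that the methods describe, the rises over mutants did not pass (adjusted p = 0.0692 for *myl7*, 0.0906 for *cmlc1* and 0.0978 for *tnnt2a*). The direct comparison of morphants with mutants also carries any difference between the wildtype kinds that go with them. The signals of *vmhc* and *nppa* overlapped between all 3 groups.

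*myl7* encodes the regulatory light chain of cardiac myosin and is a widely used marker of the whole zebrafish heart. Its log2 signals were 8.07, 8.11 and 7.76 in morphants, 7.34, 7.22 and 7.34 in mutants, 7.43 and 7.66 in uninjected wildtype and 7.26 and 7.62 in sibling wildtype. Every morphant array lay above every other array, while mutants and controls overlapped. Compared to mutants, *myl7* rose in morphants by 0.68 on the log2 scale (standard error 0.13, adjusted p = 0.00851 from limma), and this held without each array in turn (adjusted p 0.00705 to 0.0375 from limma). Compared to controls it rose by 0.49 (standard error 0.12, adjusted p = 0.0498 from limma). This second rise was at the edge of the threshold and was lost in 8 of the 10 fits that left out 1 array, with adjusted p-values up to 0.178 from limma. It remained without uninjected replicate 2 or without morphant replicate 3. Mutants had a log2 fold change of -0.19 against controls (adjusted p = 0.552 from limma).

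*cmlc1* encodes another light chain of cardiac myosin. The arrays gave log2 signals of 7.69, 8.04 and 7.5 in morphants, 7.06, 6.85 and 6.82 in mutants, 7.30 and 7.73 in uninjected wildtype and 6.94 and 7.27 in sibling wildtype. Morphants and mutants did not overlap, but uninjected replicate 2 reached the level of the morphants and sibling replicate 1 that of the mutants. In morphants *cmlc1* rose over mutants by 0.83 (standard error 0.19, adjusted p = 0.0197 from limma), a 1.78-fold difference and the largest among the 10 genes. The adjusted p was between 0.0518 and 0.0684 without morphant replicate 1, morphant replicate 2, mutant replicate 2 or mutant replicate 3. Without any 1 of these 4 arrays the rise did not pass, in fits that also had fewer arrays. Over the 10 fits that left out 1 array the log2 fold change was 0.68 to 0.95. Compared to controls, *cmlc1* had a log2 fold change of 0.43 in morphants (adjusted p = 0.229 from limma). The value for mutants was -0.40 (adjusted p = 0.381 from limma).

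*tnnt2a* encodes cardiac troponin T, the subunit that ties the troponin complex to tropomyosin, and embryos that lack it have hearts that do not beat. Log2 signals of *tnnt2a* were 7.16, 7.37 and 6.83 in morphants, 6.40, 6.16 and 6.41 in mutants, 6.52 and 6.87 in uninjected wildtype and 6.71 and 6.64 in sibling wildtype. The 3 mutant arrays lay below all others, and the 2 highest arrays were both of morphants. *tnnt2a* rose in morphants over mutants by 0.80 (standard error 0.15, adjusted p = 0.00706 from limma), also without each array in turn (adjusted p 0.00532 to 0.0327 from limma). Mutants differed from controls by -0.36 on the log2 scale (standard error 0.14), and although these groups did not overlap, the difference did not pass the test (adjusted p = 0.286 from limma). In morphants against controls it was 0.43 (adjusted p = 0.111 from limma), and 0.58 without morphant replicate 3 (adjusted p = 0.0473 from limma).

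The myosin heavy chain genes differed less. *myh6* encodes the heavy chain of the atrium, and its log2 signals were 7.01, 7.17 and 7.12 in morphants, 6.72, 6.70 and 6.68 in mutants, 6.72 and 7.26 in uninjected wildtype and 6.82 and 7.24 in sibling wildtype. Mutants lay together at the bottom of the range, close to replicate 1 of both wildtype kinds, and morphants lay close to replicate 2. Morphants exceeded mutants by 0.40 on the log2 scale (95% interval 0.079 to 0.73, adjusted p = 0.0989 from limma). The adjusted p was 0.0273 from limma on these 2 groups alone and 0.0439 by the pairwise test of the methods. Over the 10 fits that left out 1 array it was 0.0649 to 0.217 from limma, so 0 of them passed. The log2 fold change of mutants against controls was -0.31 (adjusted p = 0.360 from limma). These groups did not overlap, but only by a hair, with 6.7196 in the highest mutant and 6.7207 in the lowest control.

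*vmhc* encodes the heavy chain of the ventricle. Its log2 signals ran from 6.98 to 7.22 in morphants, from 6.97 to 7.19 in mutants and from 6.69 to 7.38 in controls, so both groups fell inside the range of the controls. The log2 fold change of morphants against mutants was 0.017 with a 95% interval of -0.35 to 0.39, an interval that leaves room for a difference about as large as that of *myh6*. A second probe set with the symbol *myh7* carries another gene identifier, and its log2 signals were 5.53 to 5.82 in morphants, 5.39 to 5.48 in mutants and 5.19 to 5.79 in controls. On this probe set morphants lay above mutants on every array, with a log2 fold change of 0.30 that did not pass the test (adjusted p = 0.289 from limma). Heavy chain genes of muscle are close in sequence, and cross-hybridization between them was not tested.

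**Figure D1:**
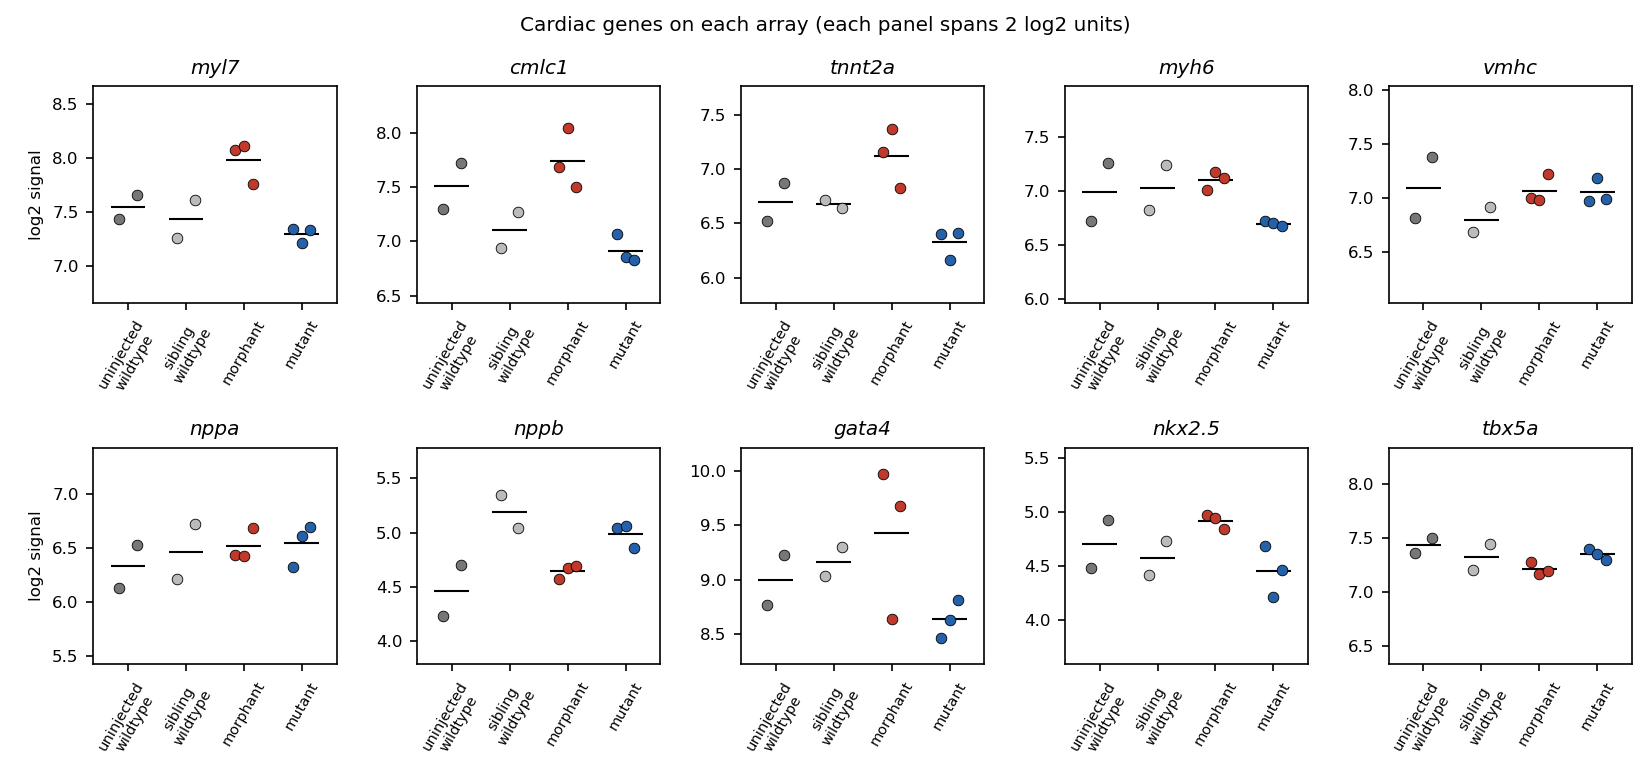
Log2 signal (vertical axis, 2 log2 units in each panel) of the 10 cardiac genes on each of the 10 arrays, by labelled group. Points are arrays and lines are group means. Morphants lie above mutants without overlap for *myl7*, *cmlc1*, *tnnt2a*, *myh6* and *nkx2.5*, and below them for *nppb* and *tbx5a*.

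The 2 natriuretic peptide genes are neighbours on chromosome 8 in the RefSeq annotation of the GRCz12tu assembly, and their signals had unlike patterns. *nppa*, which encodes atrial natriuretic peptide, had log2 signals of 6.42 to 6.68 in morphants, 6.33 to 6.69 in mutants and 6.13 to 6.72 in controls. All groups overlapped, and the log2 fold changes were 0.12 in morphants against controls (95% interval -0.23 to 0.46), 0.15 in mutants against controls (95% interval -0.20 to 0.49) and -0.028 in morphants against mutants (95% interval -0.40 to 0.34). The adjusted p-values from limma were 0.752, 0.750 and 0.938.

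*nppb*, which encodes B-type natriuretic peptide, had log2 signals of 4.57, 4.67 and 4.69 in morphants, 5.05, 5.06 and 4.86 in mutants, 4.23 and 4.70 in uninjected wildtype and 5.34 and 5.04 in sibling wildtype. The mutants lay with their wildtype siblings and the morphants with the uninjected wildtype, and the highest array of the latter pair of groups was below the lowest of the former. Siblings were 0.73 higher than uninjected wildtype (standard error 0.17, adjusted p = 0.307 from limma with 4 group means), which did not pass the test. Of the 75212 probe sets, 24 (0.0319%) passed it in that comparison. The log2 fold change of morphants against mutants was -0.34 (adjusted p = 0.374 from limma). The probe set was dim, above the median of its array on 4 of 10 arrays.

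For *nppb* the choice of control decided the sign. With the joined controls, morphants had a log2 fold change of -0.18 (adjusted p = 0.712 from limma) and mutants one of 0.16 (adjusted p = 0.812). With its own wildtype as the reference, the morphant value was 0.18 (adjusted p = 0.639 from limma) and the mutant value -0.21 (adjusted p = 0.728).

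Among the transcription factor genes, *gata4* had the widest spread. Its log2 signals were 9.97, 8.63 and 9.68 in morphants, 8.46, 8.63 and 8.81 in mutants, 8.77 and 9.23 in uninjected wildtype and 9.04 and 9.30 in sibling wildtype. Replicates 1 and 3 of the morphants were the 2 highest arrays, while morphant replicate 2 was level with mutant replicate 2. The log2 fold change of morphants against mutants was 0.79 (standard error 0.29, adjusted p = 0.105 from limma), and without morphant replicate 2 it was 1.19 (adjusted p = 0.00624 from limma), past the 2-fold threshold. With that array kept, *gata4* passed where the test was run on probe sets with 1 symbol alone (adjusted p = 0.0423 from limma), so the call rests on the array and on the probe sets tested. The spread of *gata4* within morphants (SD 0.70, n = 3) was larger than in mutants (SD 0.17, n = 3) and controls (SD 0.24, n = 4). *gata4* is also expressed in the gut. In a list of 6 genes of endoderm and intestine 2 rose in morphants over mutants and 0 fell, where 13.5% of genes rose and 23.1% passed. Those 2 were *hnf4a*, by 0.76, and *fabp2*, by 0.89 (adjusted p = 0.00716 and 0.0160 from limma). The mean of that list, centred for each gene, ran from 0.066 to 0.34 in morphants, from -0.27 to -0.12 in mutants and from -0.16 to 0.19 in controls. It was highest in morphant replicate 2, where *gata4* was lowest among morphants, and its part in the values of *gata4* was not tested.

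*nkx2.5* encodes a homeodomain factor of the early heart field. Signals on the log2 scale were 4.97, 4.94 and 4.84 in morphants, 4.68, 4.22 and 4.46 in mutants, 4.48 and 4.93 in uninjected wildtype and 4.41 and 4.73 in sibling wildtype. Morphants lay above mutants on every array, and replicate 2 of the uninjected wildtype lay among the morphants. The log2 fold change of morphants against mutants was 0.46 (95% interval 0.12 to 0.81, adjusted p = 0.0763 from limma). It was 0.58 without mutant replicate 1 (adjusted p = 0.0499 from limma). This probe set was dim as well, above the median of its array on 1 of 10 arrays.

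*tbx5a*, a T-box gene of the heart that also marks the dorsal retina and the pectoral fin bud, varied least. Its log2 signals were 7.28, 7.17 and 7.20 in morphants, 7.40, 7.36 and 7.30 in mutants, and 7.20 to 7.5 in controls. Morphants lay just below mutants, with a log2 fold change of -0.13 (95% interval -0.35 to 0.079, adjusted p = 0.409 from limma), and overlapped with the controls.

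**Figure D2:**
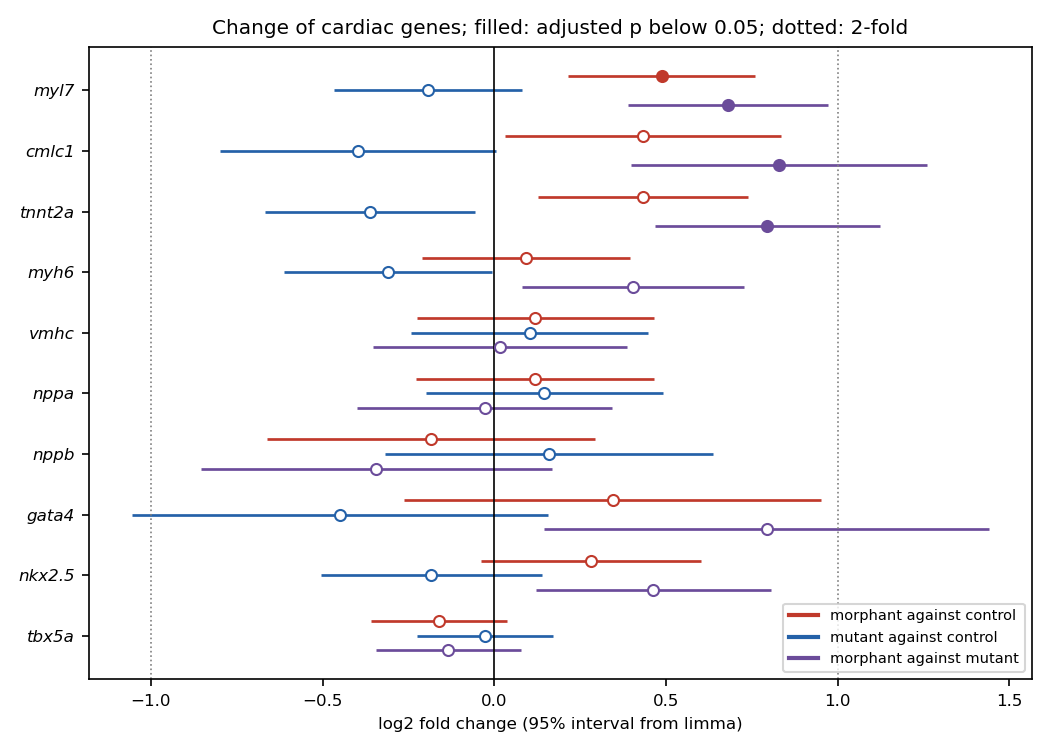
Log2 fold changes (horizontal axis) of the 10 genes in the 3 comparisons, with 95% intervals from limma. Filled points passed the test at an adjusted p below 0.05 and dotted lines mark a 2-fold change; the filled points are *myl7* in morphants against controls (0.49) and *myl7*, *cmlc1* and *tnnt2a* in morphants against mutants (0.68, 0.83 and 0.80).

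Overlap between groups was also counted. Morphants and mutants did not overlap for 7 of the 10 genes, against 35.4% of all probe sets and 48.6% of genes, with 5 higher (16.4% of all) and 2 lower (18.9%) in morphants. Morphants and controls did not overlap for 1 of the 10, with the morphants higher, against 17.8% of all probe sets and 28.1% of genes in either direction and 9.18% of probe sets with the morphants higher. For mutants and controls this was so for 2 of 10, *tnnt2a* and *myh6*, both lower in mutants, against 12.1% of all probe sets and 16.8% of genes in either direction and 5.65% of probe sets with the mutants lower. For *myh6* the closest arrays were nearly level (6.7196 in a mutant, 6.7207 in a control). Both *tnnt2a* and *myh6* had an unadjusted p below 0.05 in limma's fit, which 6.09% of all probe sets had with a lower signal. By the pairwise test that the methods describe 0 of 10 passed after adjustment in mutants against controls. An exact two-sided permutation test cannot give a p below 0.1 on 3 against 3 arrays or below 0.0571 on 3 against 4. Groups without overlap have this smallest p by construction, so the test adds nothing to these counts. It was the p of the 7 genes without overlap between morphants and mutants. It was also that of *myl7* in morphants and of *tnnt2a* and *myh6* in mutants against controls.

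The group means of 6 of the 10 genes were in the order morphant, control, mutant from high to low, an order that 21.2% of all probe sets and 27.8% of genes shared. They were *myl7*, *cmlc1*, *tnnt2a*, *myh6*, *gata4* and *nkx2.5*. With each group set against its own wildtype, the difference between the 2 changes was 0.78 for *tnnt2a* (adjusted p = 0.174 from limma), 0.57 for *myl7* (adjusted p = 0.238), 0.43 for *cmlc1* (adjusted p = 0.487) and 0.96 for *gata4* (adjusted p = 0.368). None of the 10 passed this test (0 of 10, against 0.775% of all probe sets), and 0 of 10 passed in morphants against uninjected wildtype (1.93% of all) or mutants against sibling wildtype (0.165% of all). With 2 arrays as its own wildtype, *myl7* was 0.43 higher in morphants than in uninjected embryos (adjusted p = 0.206 from limma), and *tnnt2a* was -0.35 in mutants against siblings (adjusted p = 0.546).

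Several of the members moved together over the 10 arrays. Pearson's r was 0.921 between *myl7* and *cmlc1*, 0.917 between *myl7* and *tnnt2a* and 0.899 between *cmlc1* and *tnnt2a*, and *nkx2.5* had an r of 0.831 to 0.882 with these 3. *vmhc* had an r of 0.213 with *myl7* and 0.583 with *nppa*, and *nppb* an r of -0.557 with *cmlc1*. After the mean of each of the 3 groups was subtracted, r was 0.814 between *myl7* and *cmlc1*, 0.680 between *myl7* and *tnnt2a* and 0.766 between *myl7* and *nkx2.5*. Other pairs changed with this step. The r of *myl7* went from -0.295 to 0.692 with *tbx5a* and from 0.539 to -0.053 with *gata4*. These are descriptions of 10 arrays that each gave every gene its value from the same RNA, so that what sets 1 pool apart can enter all of them. The medians of the arrays differed little (4.92 to 4.96).

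Part of this shared variation lay between the wildtype arrays. In uninjected wildtype, replicate 2 was higher than replicate 1 for 10 of the 10 genes, with a median difference of 0.44, while 49.0% of all probe sets were higher, with a median difference of -0.0063. In sibling wildtype, replicate 2 was higher for 8 of the 10, all but *tnnt2a* and *nppb*, with a median difference of 0.29 (50.6% of all probe sets, median difference 0.0041). For *cmlc1* the gap between the 2 uninjected arrays was about as wide as the change of either group against control.

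The 5 contractile members were set beside the rest of a list of 20 sarcomere genes of the heart. All 20 had positive log2 fold changes in morphants against mutants, as had 43.5% of all probe sets and 49.8% of genes. Of the 20, 8 rose and 0 fell (13.5% of genes rose and 23.1% passed in either direction), and the median was 0.41, where the median over all probe sets was -0.038. The 15 that are not members ran from 0.11 to 2.7, with a median of 0.34, and 5 of them rose. In morphants against controls 13 of the 15 were positive (44.7% of all probe sets and 49% of genes), with a median of 0.15. Of the 15, 3 rose and 0 fell, where 7.13% of genes rose and 9.94% passed in either direction. In mutants against controls 14 of the 15 were negative (47.5% of all probe sets and 51.5% of genes) and 0 fell, with a median of -0.17. Each pair of these comparisons shares the arrays of a group, so they are not independent of each other. The list was chosen with earlier results of these data known. Its genes were read from the same pools and can vary together, so they are not separate observations.

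The largest change of the list was in *tcap*, which encodes telethonin of the Z-disc, also a protein of skeletal muscle. Its log2 signals were 6.66, 6.10 and 8.15 in morphants, 4.30, 4.00 and 4.51 in mutants and 4.01 to 4.58 in controls. The probe set was above the median of its array on the 3 morphant arrays alone and dim on the others. *tcap* rose by 2.75 over controls and by 2.7 over mutants (adjusted p = 0.00349 and 0.00303 from limma), and was called at 2-fold in both. *alpk3a*, a kinase gene of striated muscle, rose by 0.80 over controls and 0.94 over mutants, and *nexn*, a gene of the Z-disc, by 0.59 and 0.59 (adjusted p 0.00169 to 0.00894 from limma). The troponin C gene *tnnc1b* and the alpha-actinin gene *actn2b* rose over mutants alone among the 3 comparisons, by 0.49 each (adjusted p = 0.0222 and 0.0270 from limma). The cardiac actin gene *actc1a* had 0.34, the heart's troponin C gene *tnnc1a* 0.61 and the myosin binding protein gene *mybpc3* 0.28 against mutants, none of which passed the test (adjusted p = 0.0668, 0.0566 and 0.243 from limma).

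Skeletal muscle, which shares sarcomere proteins with the heart, is far larger in the embryo. How much of the signal of the heart sarcomere list came from skeletal muscle was not tested. In that list *actc1a* had a mean log2 signal of 12.3 over the 10 arrays, above 99.8% of probe sets. The skeletal actin gene *acta1b* had the same rounded mean and share, but other signals on the single arrays. Of 23 skeletal muscle genes 3 rose and 1 fell in morphants against mutants, no larger a share than the 23.1% of genes that passed, with a median of 0.0027, 12 positive and 11 negative. Those that rose were *myod1* (1.01) and *myog* (0.48), transcription factors of muscle precursors, and the actin gene *acta1a* (0.42), and the slow myosin gene *smyhc2* fell by 0.87 (adjusted p 0.00352 to 0.0367 from limma). The mean of *acta1a* was 10.8 in morphants, 10.9 in controls and 10.4 in mutants. That of *smyhc2* was 4.47, 4.63 and 5.34, so for both genes the mutants were further from the controls. The probe set of *smyhc2* was dim, above the median of its array on 2 of 10 arrays. The fast myosin genes *myhz1.1* and *mylpfa* had -0.065 and 0.11. Averaged over its genes after each had been centred, this list ran from -0.012 to 0.037 in morphants, from -0.091 to 0.023 in mutants and from -0.089 to 0.079 in controls, so the 3 groups overlapped. Of the 23 genes, 13 have signals above those of 99% of probe sets, where array signals can be compressed, and 0 of the 5 contractile members do. The other 10 skeletal genes were set apart after the values were seen. They held the 3 that rose and the 1 that fell, where 23.1% of all genes passed, while 0 of the 13 brightest passed. These 10 averaged -0.0031 to 0.10 in morphants, -0.091 to 0.0084 in mutants and -0.084 to 0.11 in controls. The groups overlapped again, in an average where changes of opposite sign can cancel.

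The same average of the 5 contractile members was 0.27, 0.42 and 0.17 in morphants, -0.21, -0.29 and -0.27 in mutants, -0.16 and 0.27 in uninjected and -0.23 and 0.022 in sibling wildtype. Morphants and mutants were apart, and uninjected replicate 2 lay inside the range of the morphants and sibling replicate 1 inside that of the mutants. The 15 other sarcomere genes had means of 0.28 to 0.35 in morphants, -0.29 to -0.17 in mutants and -0.21 to 0.063 in controls. Without *tcap*, left out after its values were seen, the morphants were at 0.15 to 0.28 and the controls at -0.15 to 0.13.

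**Figure D3:**
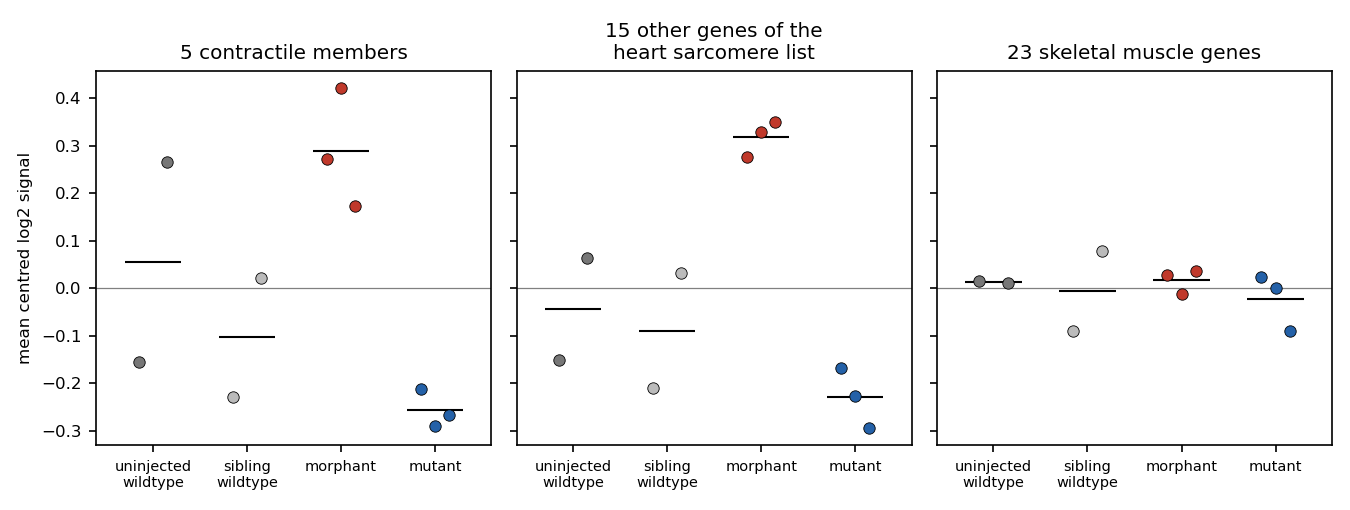
Mean log2 signal of 3 gene lists on each array (vertical axis), each gene first centred over the 10 arrays, by labelled group; points are arrays and lines group means. Morphants and mutants are apart for the contractile members (0.17 to 0.42 against -0.29 to -0.21) and overlap for skeletal muscle (-0.012 to 0.037 against -0.091 to 0.023).

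The other cardiac factors were mixed. Of 18 measured genes of this class, *gata4*, *nkx2.5* and *tbx5a* included, 4 rose and 2 fell in morphants against mutants, with a median of 0.21, where 13.5% of genes rose and 23.1% passed in either direction. *gata5*, a partner of *gata4* in heart and endoderm, rose by 0.87, *tbx5b*, the paralog of *tbx5a*, by 0.68, *nkx2.7*, a relative of *nkx2.5*, by 0.48 and *mef2ca*, a MADS-box factor of muscle, by 0.36 (adjusted p 0.0414 to 0.0434 from limma). The mean of *nkx2.7* was 5.39 in morphants, 5.32 in controls and 4.91 in mutants. Those that fell were *zfpm2a*, a cofactor of GATA proteins (-0.99, adjusted p = 0.00288 from limma), and *isl1* (-0.79, adjusted p = 0.00666), which marks the second heart field but also neurons. The probe set of *zfpm2a* was above the median of its array on 6 of 10 arrays, and dim in morphants (4.66 to 4.88). Against controls 3 of the 18 rose in morphants and 0 fell, where 7.13% of genes rose and 9.94% passed in either direction. They were *tbx5b*, *mef2ca* and *mef2cb*, by 0.82, 0.38 and 0.33 (adjusted p 0.0288 to 0.0455 from limma). In mutants against controls 0 of the 18 rose or fell, where 0.306% of genes passed.

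Of 7 measured natriuretic genes, 2 rose and 1 fell in morphants against mutants, where 23.1% of genes passed. The receptor genes rose, *npr3*, which clears the peptides, by 0.76 (adjusted p = 0.00573 from limma) and *npr1a*, whose product makes cyclic GMP, by 0.47 (adjusted p = 0.0423). The mean of *npr1a* was 6.05 in morphants, 5.92 in controls and 5.58 in mutants. *nppc*, the gene of C-type natriuretic peptide, fell by 0.60 (adjusted p = 0.0251 from limma). *npr3* had log2 signals of 8.84, 8.49 and 9.0 in morphants and at most 8.24 on every other array, and it rose over controls as well, by 0.68 (adjusted p = 0.0137 from limma).

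Of 14 measured genes of calcium handling and conduction, 0 rose and 1 fell in morphants against mutants, where 13.6% of all probe sets and 23.1% of genes passed, and the median was -0.15. The gene that fell was *scn5lab*, a cardiac sodium channel, by 0.34 (adjusted p = 0.0483 from limma). Its mean was 4.85 in morphants, 4.80 in controls and 5.19 in mutants, so the morphants were close to the controls. Its probe set was dim, above the median of its array on 4 of 10 arrays. Those of *kcnq1*, *ryr2b* and *kcne4* in this list were dim too, above it on 3, 0 and 0 of 10 arrays. Of 7 genes of endocardium and valve 3 rose, *notch1b* by 0.58, *bmp4* by 0.53 and *klf2a*, a flow-responsive factor, by 0.36 (adjusted p 0.00472 to 0.0483 from limma), and of 4 genes of the epicardium *tcf21* fell by 0.37 (adjusted p = 0.0216 from limma). Of all genes, 23.1% passed in this comparison. All these genes are expressed outside the heart too.

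**Figure D4:**
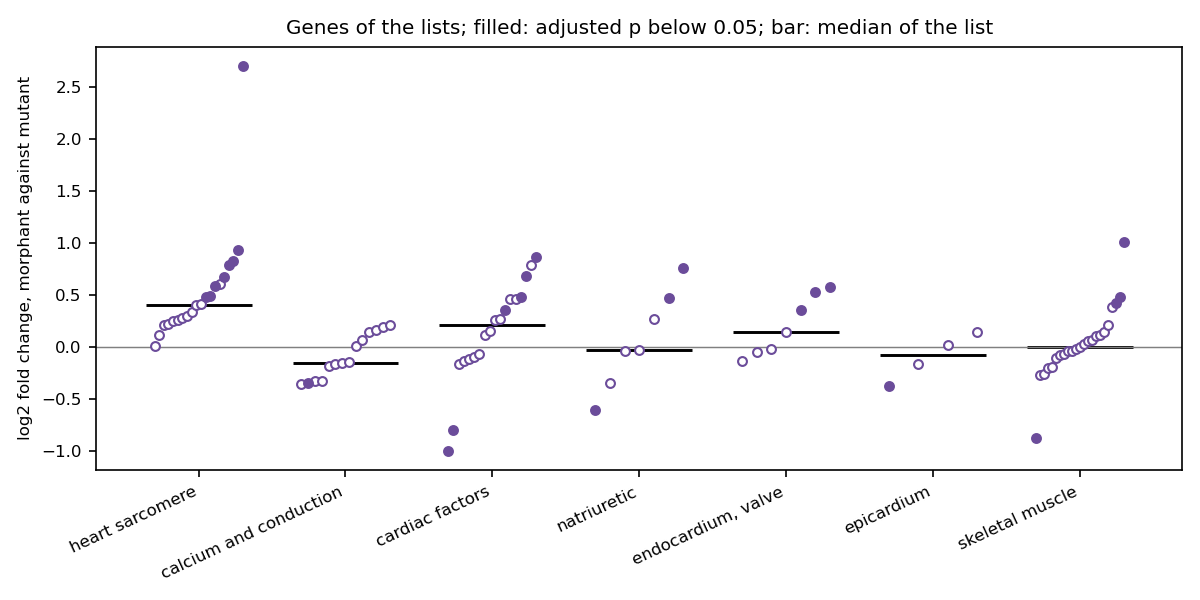
Log2 fold changes of morphants against mutants (vertical axis) for the genes of 7 lists; each point is a gene, filled where it passed the test at an adjusted p below 0.05, and bars are medians. The heart sarcomere list has a median of 0.41, skeletal muscle 0.0027 and calcium and conduction -0.15.

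Among 3341 genes that varied over the arrays (SD of at least 0.3, members left out), those with the pattern closest to the mean of the 5 contractile members were *sfrp5*, a secreted Wnt inhibitor (r = 0.978 over 10 arrays), *her6*, a Hairy-related factor (0.974), *aptx*, a DNA repair gene (0.969), *pvalb3*, a parvalbumin (0.964) and *prtga* (0.963). In all, 122 of the 3341 genes had an r over 0.9, so the pattern was not particular to the contractile members. The median r over the 3341 genes was 0.253. For *nppb* the closest were *mhc1lia*, an MHC class I gene (0.932), *cyp7b1* (0.904) and *cldnf* (0.903), and 3 genes passed 0.9. For *nppa* the closest was *or62b3*, an odorant receptor gene (0.827), and 0 genes passed 0.9. These values describe likeness over the same 10 arrays, without a test.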

How the data were processed

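RNA of 10 pools of whole embryos was hybridized to GeneChip Zebrafish Gene arrays of the ST type. The deposited values are log2 signals that the authors made, per the methods, by RMA (R package oligo), which corrects background, equalizes the distributions of arrays and summarizes probes by median polish; the submitters' processing notes name GCRMA, and versions are not given in the sources used here. They were used as deposited, for 75212 probe sets, without a filter, and ran from 1.39 to 13.25. limma 3.58.1 in R 4.3.3 was fitted with a mean for each of 3 groups (morphant, mutant, joined control; 7 residual and 3.13 prior degrees of freedom), or 4 means where the wildtype kinds were kept apart, with Benjamini-Hochberg adjustment over all probe sets. The median SD within groups was 0.165, and the number of arrays limits the precision. The fit was also run on simulated data with independent noise and changes larger than those of the members. That run does not cover changes of the size seen in the members, or variation that genes of a pool share. Probe sets with 1 symbol (20806) gave gene names, through an annotation that can be old; 855 had several symbols and 53551 none. Each member is shown by its brightest probe set. Genes of the lists are named where they passed the test, at most the 5 with the largest change per list and comparison, and all that passed in the sarcomere list; those named without passing were chosen after their values were seen. The members, lists and alternatives were chosen with earlier results of these data known. Alternatives were the pairwise test of the methods, limma on 2 groups, each wildtype kind alone as control, other scalings, a filter on dim probe sets, single-symbol probe sets, a trended prior, a block for replicate number, no fold threshold, all probe sets of a gene and each array left out. Sequences of the genes were not analysed here. Tables and figures were made with Python 3.11.15, numpy 2.4.6, pandas 2.3.3 and matplotlib 3.10.9.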

Additional observations from a re-analysis of the deposited data

How the results depend on the processing

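No alternative called a member at 2-fold, with the exception of *gata4* in morphants against mutants without morphant replicate 2, so the count over the fits that left out 1 array was 0 to 1. With no fold threshold the counts were 1 in morphants against controls, 3 in morphants against mutants and 0 in mutants against controls, and over the other alternatives they ran from 0 to 2, from 1 to 6 and from 0 to 0. The 6 came from testing probe sets with 1 symbol alone, which lowers the number of tests and added *myh6*, *gata4* and *nkx2.5* (adjusted p 0.0305 to 0.0436 from limma). With the pairwise test of the methods only *myh6* passed in morphants against mutants (adjusted p = 0.0439), and *myl7*, *cmlc1* and *tnnt2a* had adjusted p-values of 0.0692, 0.0906 and 0.0978. The rise of *myl7* over controls was also lost with that test (adjusted p = 0.207), with limma on 2 groups (0.105), against uninjected or sibling wildtype alone (0.206 and 0.0870) and after repeated quantile normalization (0.0844). Between arrays with the same replicate number, r of the deviations from group means was -0.0972 to 0.223. It was over 0.1 for 2 of 13 such pairs, both of a morphant and a sibling wildtype array, and for 0 of 24 pairs with different numbers. The deviations of 2 arrays of a wildtype kind mirror each other, so this check cannot settle whether the numbers pair the arrays. With the replicate number as a block, *myl7* against controls had 0.53 (adjusted p = 0.0697 from limma), and no other call of a member changed.

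Signs turned only for differences that had not passed the test. Against uninjected wildtype alone *vmhc* was -0.029 in morphants and -0.046 in mutants and *nppb* 0.18 in morphants, and against sibling wildtype alone *nppb* was -0.21 and *tbx5a* 0.027 in mutants. After repeated quantile normalization *vmhc* was -0.0265 in morphants against mutants. With 1 array left out, the ranges that crossed 0 were -0.0038 to 0.18 for *myh6* in morphants against controls, -0.041 to 0.33 for *nppb* and -0.085 to 0.014 for *tbx5a* in mutants against controls, and -0.14 to 0.048 for *nppa* and -0.061 to 0.086 for *vmhc* in morphants against mutants. A filter on dim signals removed *nppb* and *nkx2.5*, which then gave no value. The causes of these changes were not tested.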

Other observations

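Some genes of other tissues that were listed as markers passed the test in morphants against mutants, a test that 13.6% of all probe sets and 23.1% of genes with a symbol of their own passed. Of 9 endothelial genes 1 rose and 1 fell, *kdrl*, a VEGF receptor, by 0.56 and the ETS factor *fli1a* (-0.34; adjusted p = 0.00381 and 0.0211 from limma), and the median of the list was 0.092. Of 7 erythrocyte genes 1 rose, the globin gene *hbbe3* (1.09), and 2 fell, *alas2* of heme synthesis (-1.34) and the globin gene *hbae3* (-0.53; adjusted p 0.000782 to 0.0318 from limma). Of 8 genes of the dorsal retina and the fin bud, places where *tbx5a* is also expressed, 2 rose and 0 fell, *gdf6a* by 0.49 and *fgf10a* by 0.45 (adjusted p = 0.00562 and 0.0215 from limma), while *tbx5a* itself had -0.13. No list of another tissue had as high a median as the 0.41 of the heart sarcomere genes. The nearest was the endoderm list with 0.29 over 6 genes. This ranks the lists and not the tissues. How much of the sarcomere signal came from skeletal muscle was not tested. Of the 23 skeletal genes, 13 were so bright that their changes can be compressed. The 0.41 includes the 5 contractile members, and the 15 other sarcomere genes had a median of 0.34, or 0.32 without *tcap*. The other lists of the heart had lower medians. These were 0.21 for cardiac factors, 0.14 for endocardium and valve, -0.028 for natriuretic genes, -0.071 for the epicardium and -0.15 for calcium and conduction.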
